A study of Mus musculus and Rattus norvegicus with 6 samples.

Results

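The microRNAs (miRNAs) numbered miR-669, miR-467, miR-466 and miR-297 are rodent miRNAs, most of which lie in one large cluster inside an intron of Sfmbt2. They were examined here in the retina, the neural tissue of the eye that senses light. Every row of the mouse and rat count tables with 1 of these 4 numbers was taken, with any letter, copy or arm. That gave 80 of the 1915 names in the mouse table and 8 of the 764 names in the rat table. Rows with equal counts in all 3 libraries of a species were taken once before any sum, because such rows can be 1 set of reads under several names. The mouse group was wild-type C57BL/6 and the rat group wild-type Sprague Dawley, each 9 weeks of age with 3 libraries, and no treatment is given for either. Nothing in the labels says that each library came from a separate animal, so a p-value covers only library-to-library spread, part or all of which may be technical.

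A miRNA is cut from a hairpin, a folded stretch of a longer transcript, and either side of the hairpin (the 5p or the 3p arm) can become the mature RNA. Bases 2 to 8 of the mature RNA, the seed, pair with target messenger RNAs. Sfmbt2 encodes a Polycomb-group protein. In mouse the gene is imprinted, with expression from the paternal copy in extra-embryonic tissue, and its miRNA cluster is best known from the placenta and trophoblast. The hairpins arose by repeated local duplication and are rich in UG and CA repeats, so that many of their mature sequences are alike.

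In the mouse genome build GRCm38, RefSeq gives 82 hairpin genes with these numbers, of which 72 lay inside Sfmbt2 (chr2:10370510-10595253, plus strand). All 72 were on the strand of Sfmbt2, and all 72 fell into a single intron (chr2:10461473-10523944), the 10th of 22 in one annotated protein-coding transcript and the 11th of 22 in another. They spanned 51.6 kb, with a median of 0.296 kb from the start of one to the start of the next. Inside this span the order miR-467, miR-466, miR-669 recurred: 12 such trios of neighbouring hairpins held 36 of the 72, with a median of 2.45 kb between the starts of successive trios. By number, 5 of 6 hairpins of miR-297, 24 of 29 of miR-466, 14 of 17 of miR-467 and 29 of 30 of miR-669 were in the intron. Copies were uneven: miR-669a had 12 hairpins, miR-467a had 10 and miR-466b had 8. GENCODE M21 lists another 47 miRNA genes in Sfmbt2 under other symbols, of which 0 carry a miRNA number of another family.

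The other 10 hairpins lay on other chromosomes. RefSeq mature sequences (GRCm38.p6) were found for 8 of the 80 mouse names, all from these scattered hairpins, and they are shown because they make the repeat character of the family visible. Capitals mark the seed, and each sequence reads 5′ to 3′.
miR-466q (chr3:28419988-28420007, plus strand): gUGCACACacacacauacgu
miR-466k (chr3:85467396-85467418, plus strand): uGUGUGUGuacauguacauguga
miR-669n (chr3:115979905-115979924, plus strand): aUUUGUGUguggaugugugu
miR-467g (chr5:34732872-34732892, minus strand): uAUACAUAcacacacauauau
miR-467h (chr9:115381898-115381919, plus strand): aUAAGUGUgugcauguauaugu
miR-466j (chr10:60960802-60960824, plus strand): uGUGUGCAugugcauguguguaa
miR-467f (chr11:69635419-69635439, minus strand): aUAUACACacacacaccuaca
miR-466i-3p (chr13:17747552-17747573, plus strand): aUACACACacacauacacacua

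Each of the 8 holds a run of at least 7 bases in which U alternates with G or C with A. Of 1674 different mouse mature sequences in the RefSeq table, 19 (1.14%) hold a run that long, the 8 members among them. The longest runs, of 12 bases, were in miR-466q and miR-467f. The hairpin of miR-466q lies in an intron of Tnik on the same strand, and those of miR-466i, miR-467f, miR-467g and miR-669n lie in introns of Cdk13, Fxr2, Grk4 and Slc30a7 on the opposite strand, as miR-466k does for Gm37240. The hairpins of miR-466j and miR-467h overlap no annotated host gene. The 8 seeds all differ. Of the 8, only miR-466q reached 10 counts in each mouse library, and no mouse name outside the 4 numbers has its seed in the RefSeq table. The seed of miR-467h also occurs in miR-668-5p (chr12:109734733-109734756, plus strand), a product of the imprinted Dlk1-Dio3 locus with 3, 4 and 6 counts.
miR-668-5p: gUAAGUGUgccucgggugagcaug

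The libraries held 24169628 to 30514632 counts, so that a count of 0 allows up to 3 counts, or 0.0983 to 0.124 CPM (counts scaled to a table total of 1000000). Retinal markers were present: names of the photoreceptor cluster that includes miR-183 held 36.1% to 48.8% of counts over the 6 libraries, and the neuronal miR-124 and miR-9 held 5.19% to 9.29%. Names of the retinal pigment epithelium held 1.38% to 1.62% in mouse and 2.47% to 3.11% in rat, and those of muscle 0.0642% to 0.0884% in mouse and 0.00449% to 0.00673% in rat, both without overlap. Names of other epithelia held 0.00198% to 0.00565% in mouse and 0.00595% to 0.00921% in rat, also without overlap. Names of red blood cells (0.0162% to 0.0296%) and leukocytes (0.00422% to 0.00762%) overlapped between species. The summed members held 0.00630% of mouse counts, above the mouse names of leukocytes and of other epithelia and below those of red blood cells and muscle; the part of other cell types in the members' levels was not tested. Fewer cells that make a miRNA and less of it per cell cannot be told apart in whole tissue. Rat library r1 stood apart, with 5.19% of counts on the neuronal names against 9.24% in r2 and 9.29% in r4, and results that rest on it are given with and without it.

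The members were a faint part of the mouse retina's miRNAs. Of the 80 mouse names, 27 reached 10 counts in each library, 23 more had at least 1 count in each, 22 were at 0 in some libraries and 8 were at 0 in all. The share with 10 counts in each library, 33.8%, is close to the 32.6% of the other 1835 names. Among names with that many counts, the members sat lower, with a median of 2.06 CPM against 11.3 CPM, and 6 members (7.50%) against 384 other names (20.9%) reached 100 counts in each library. In the imprinted Dlk1-Dio3 cluster, another large group of miRNA genes in one locus, 54 of 74 names (73.0%) reached 10 counts and 36 (48.6%) reached 100. These shares are descriptions with no test. The 8 names at 0 were miR-466a-5p, miR-466l-5p, miR-466o-3p, miR-467f, miR-669g, miR-669i, miR-669j and miR-669k-3p, for which at most 0.108 CPM in a library is compatible with a count of 0.

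With equal rows taken once, the members summed to 1705, 1978 and 1776 counts in m1, m3 and m4. This is 63.0 CPM ± 1.79 (SD, n = 3), and the 3 libraries lay close together. Summing every row instead gave 90.5 CPM ± 3.68 (SD, n = 3). The miR-669 names held 45.8% ± 1.85 of the sum, miR-467 28.2% ± 1.99, miR-466 22.5% ± 1.21 and miR-297 3.62% ± 0.540 (SD, n = 3 each). This order was the same in all 3 libraries; a low set of equal rows that mixed numbers counts under each. The sum was concentrated: a single name held 28.6% ± 2.43 and the 10 most abundant sets of rows held 80.2% ± 0.539 (SD, n = 3 each).

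The most abundant member was miR-669c-5p, which had 470, 531 and 557 counts, or 18.0 CPM ± 1.54 (SD, n = 3). It ranked 263rd of the 1915 mouse names, with no overlap with any other member's libraries. The annotation gives miR-669c 1 hairpin, 42.6 kb from the first hairpin of the cluster, and no other name had its counts. Next came miR-467a-5p and miR-467b-5p, with 260, 342 and 255 counts under both names (9.86 CPM ± 1.17, SD, n = 3). These reads come from up to 11 hairpins, 10 of miR-467a and 1 of miR-467b, and cannot be placed among them.

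The third, miR-466i-5p, does not belong to the Sfmbt2 intron: its hairpin is on chromosome 13, in an intron of Cdk13 and on the other strand (chr13:17747473-17747593). It had 147, 137 and 112 counts (4.58 CPM ± 0.658, SD, n = 3). The opposite arm, miR-466i-3p, shown above, had 7, 6 and 2. Names whose hairpins all lie outside Sfmbt2 held 8.65% ± 1.30 (SD, n = 3) of the members' sum, most of it miR-466i-5p. Of 9 such names, only miR-466i-5p and miR-466q reached 10 counts in each library, and miR-466q had 13, 11 and 17. The names miR-466j, miR-466k, miR-467f, miR-467g, miR-467h and miR-669n had 0 to 3 counts in every library. In comparison 24 of 66 names whose hairpins all lie in the intron reached 10 counts in each library, and so did 1 of 5 names with hairpins in both places.

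**Figure D1:**
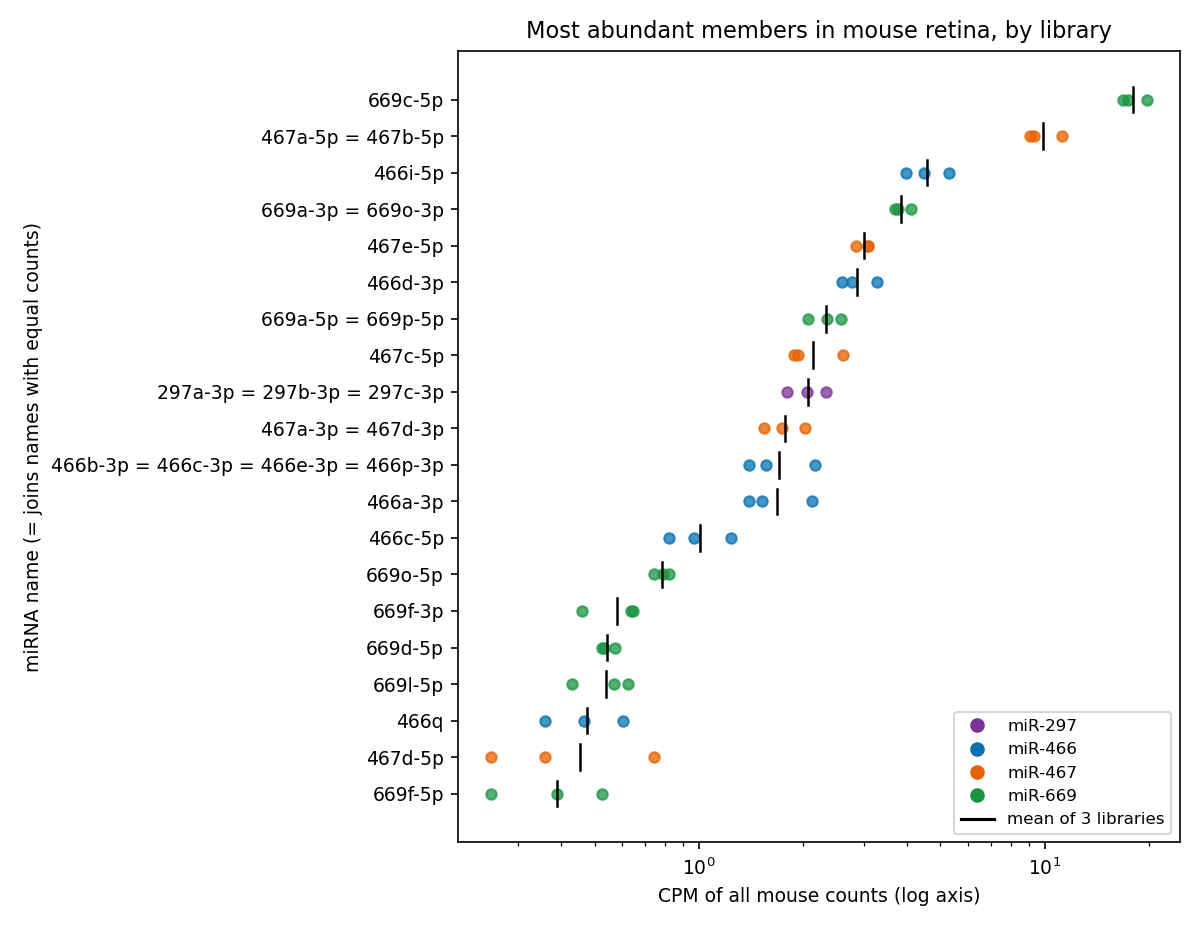
Level of the 20 most abundant sets of member rows in the mouse retina, in CPM of all mouse counts on a log axis, with 1 point per library and a bar at the mean of the 3. Names joined by an equals sign had equal counts in all 3 libraries; miR-669c-5p lies above every other set, and most neighbours below it overlap.

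Below these, most neighbours in the order overlapped. The names miR-669a-3p and miR-669o-3p shared 103, 125 and 106 counts (3.85 CPM ± 0.214), miR-467e-5p had 86, 87 and 87 (3.01 CPM ± 0.137) and miR-466d-3p had 77, 100 and 73 (2.88 CPM ± 0.357; SD, n = 3 each). The libraries of miR-467e-5p and miR-466d-3p overlap, so their order is not resolved. The 5p arm of miR-669a, equal to miR-669p-5p, had 72, 63 and 66 counts (2.33 CPM ± 0.261), and miR-467c-5p had 54, 80 and 53 (2.15 CPM ± 0.412; SD, n = 3 each). All 3 names of miR-297-3p had 65, 55 and 58 counts (2.06 CPM ± 0.266, SD, n = 3). The libraries of the last 3 sets overlap with each other, so their order is not resolved either.

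The 3p arms of miR-467a and miR-467d shared 43, 62 and 49 counts, and those of miR-466b, miR-466c, miR-466e and miR-466p shared 39, 66 and 44. The row of miR-466a-3p, with 39, 65 and 43, differed from the last by at most 1 count per library. Library m3 was the highest of the 3 in each of these sets. Lower still came miR-466c-5p (27, 25 and 35 counts), miR-669o-5p (22, 25 and 21), miR-669f-3p (18, 14 and 18), miR-669d-5p (16, 16 and 15), miR-669l-5p (12, 19 and 16) and miR-466q. Under the threshold of 10 counts, the next by level were miR-467d-5p (7, 11 and 21) and miR-669f-5p (7, 16 and 11). By lowest count the nearest were miR-669h-5p (9, 12 and 9) and miR-466h-5p (11, 9 and 9), so that the threshold divides names of like level. In the sets past the threshold, the coefficient of variation between libraries had a median of 13.4%, where counting error alone gives a median of 13.5%. The 3 most abundant sets varied more than counting error: 8.53% against 4.39% for miR-669c-5p, 11.9% against 5.92% for miR-467a-5p and miR-467b-5p, and 14.4% against 8.71% for miR-466i-5p. Some fainter sets did too, as the set of miR-466b-3p (23.5% against 14.2%) and miR-467c-5p (19.2% against 12.7%). Others varied less, as miR-467e-5p (4.54% against 10.8%). With 3 libraries each coefficient is itself uncertain, and none of these differences from counting error was tested.

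Equal rows set these miRNAs apart from the rest of the mouse table. Of the 27 members with at least 10 counts in each library, 15 (55.6%) had the same counts as another name in all 3 libraries. Among the other 598 mouse names with that many counts, 2 (0.334%) did. The 15 fell into 6 sets, each of 1 number and 1 arm, so the 27 names stand for 18 different sets of counts. Below 10 counts a further 15 names fell into 6 sets of equal rows, of which 4 mixed numbers or arms, as miR-669c-3p and miR-669k-5p at 3, 2 and 0 counts did. In the rat table, 2 of the 5 members with 10 counts in each library were equal, against 2 of 447 other names (0.447%). How reads that match several names were treated is not given in the sources used here.

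The sets differed between the arms of a hairpin. The name miR-669a shared its 5p counts with miR-669p but its 3p counts with miR-669o, and miR-467a shared its 5p counts with miR-467b but its 3p counts with miR-467d. The letters alone therefore do not say which hairpin a read came from. Of the names tied to 1 hairpin in the intron and with counts equal to no other name, 8 arms reached 10 counts in each library. They were miR-669f-3p and miR-669l-5p within 2.31 kb of the first hairpin, miR-467c-5p at 7.27 kb, and miR-467e-5p (39.1 kb), miR-466a-3p (41.3 kb), miR-669c-5p (42.6 kb), miR-466d-3p (45.3 kb) and miR-669o-5p (47.6 kb) toward the far end. The place of miR-466a-3p is the least certain, since its counts were within 1 per library of the row that 4 other names share. Between 7.27 and 39.1 kb, where most of the repeated trios lie, no arm at 10 counts in each library had 1 hairpin and counts of its own. Unequal counts can still hold reads shared in part, so the 8 places rest on the names alone. The plot of level along the intron shows this stretch mostly as rows of open circles, and the filled ones within it are below 10 counts.

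**Figure D2:**
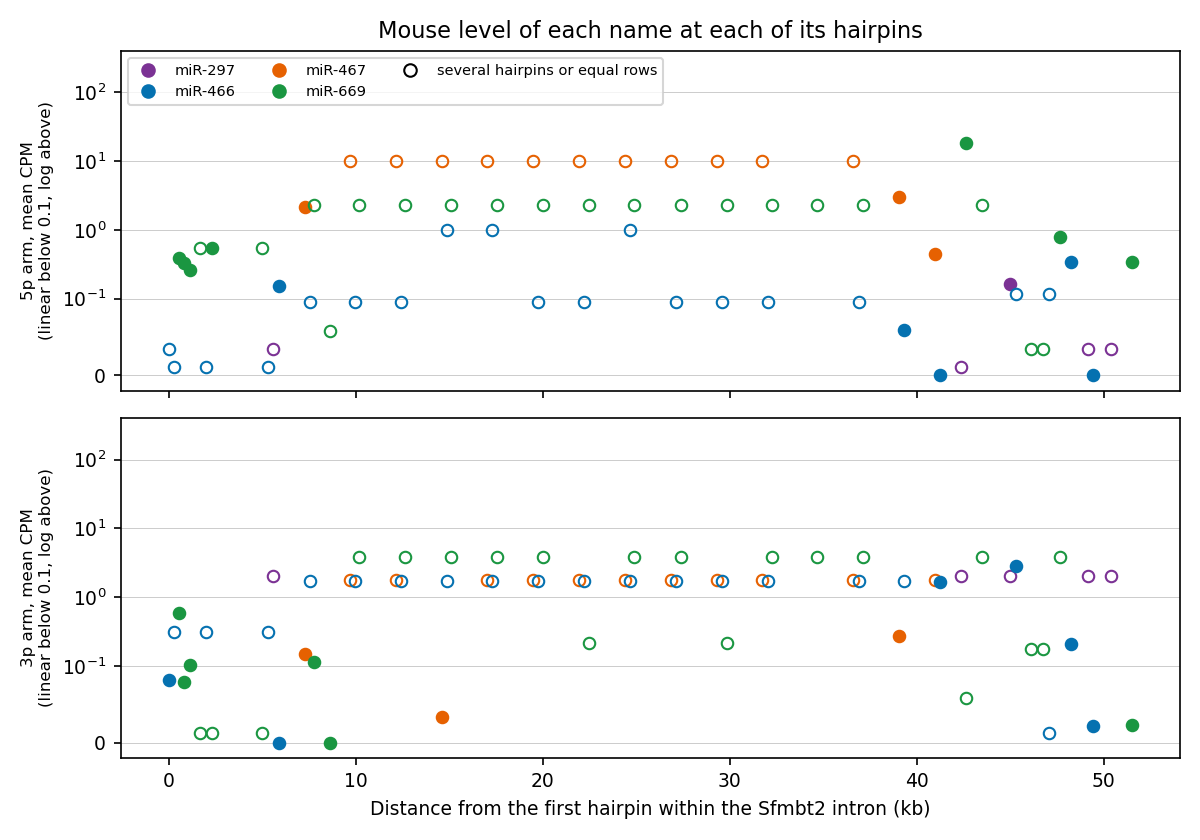
Mean mouse CPM of each name with an arm, drawn at every hairpin in the Sfmbt2 intron that it could come from. The horizontal axis is distance in kb from the first hairpin, with 5p arms above and 3p arms below (linear scale below 0.1, log above). Names without an arm, such as miR-466g, are not drawn. Filled points belong to 1 hairpin and to counts that no other member name had, apart from names at 0, which are also filled. Open points repeat 1 value at several hairpins or names, and the highest filled point is miR-669c-5p at 42.6 kb.

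The 4 numbers differed in the arm that carried the reads. With equal rows taken once, 5p arms held 72.5% ± 1.08 and 3p arms 26.3% ± 1.46 of the members' sum in mouse (SD, n = 3 each). For miR-467 the 5p names summed to 15.5 CPM ± 1.36 and the 3p names to 2.23 CPM ± 0.477, and for miR-669 to 23.6 CPM ± 1.23 and 5.22 CPM ± 0.169 (SD, n = 3 each). Most of the miR-669 lead was that of miR-669c-5p. Without miR-669c, a value added after the data were seen, the 5p names summed to 5.62 CPM ± 0.322 and the 3p names to 5.16 CPM ± 0.137 (SD, n = 3 each). The ranges overlapped across libraries. Within each library the 5p names stayed slightly above, at 161 against 143 counts in m1, 178 against 162 in m3 and 148 against 142 in m4. For miR-297 the order was the other way round, with 0.208 CPM ± 0.0102 in 5p and 2.06 CPM ± 0.266 in 3p names (SD, n = 3 each). For miR-466 the arms were close, at 6.40 CPM ± 0.815 and 7.08 CPM ± 1.10 (SD, n = 3 each), and their libraries overlapped. Most of that 5p sum was miR-466i-5p from chromosome 13. Without miR-466i, also added after the data were seen, the 3p names led in every library, at 6.91 CPM ± 1.09 against 1.82 CPM ± 0.439 for 5p (SD, n = 3 each).

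Arm preference was tested in mouse as log2 of 5p over 3p counts against 0, in a limma fit over all 269 hairpin names with both arms and at least 50 counts in each library. Calls needed a Benjamini-Hochberg adjusted p below 0.05 and a log2 size above 1. Of 33 member names with both arms, 15 could be tested: 7 were called for 5p (5p calls were 47.2% of all names tested), 6 for 3p (43.5% of all tested) and 2 were not called. These shares are near the background. The ratios had a median size of 3.55 on the log2 scale against 5.43 over all names tested. Counts bound this size, and the members were fainter than other names, so the medians are not a like comparison. In m1, miR-297c reached only -7.03 with 65 counts against 0.

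The largest 5p preference was in miR-669c, whose 3p arm had 3, 2 and 0 counts (log2 ratio 8.31 ± 0.71, SE; limma adjusted p = 0.000825). Then came miR-467b (7.85 ± 0.46, limma adjusted p = 0.000268) and miR-466i (4.73 ± 0.30, limma adjusted p = 0.000341). The largest 3p preferences were in miR-297c (-6.37 ± 0.45, limma adjusted p = 0.000471), miR-297a (-5.60 ± 0.57, limma adjusted p = 0.00145) and miR-466d (-4.68 ± 0.49, limma adjusted p = 0.00159). The weaker arm of each of these 6 had 7 counts or fewer in every library, so that the size depends on the pseudocount of 0.5. The tested names are not independent, because 11 of the 15 had an arm whose counts another name of that number and arm also had. The 4 that did not, miR-669c, miR-466i, miR-467c and miR-467e, were all called for 5p.

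The names miR-467c (3.95 ± 0.49), miR-467e (3.55 ± 0.43), miR-669p (3.37 ± 0.29) and miR-467a (2.47 ± 0.09) were also called for 5p, with limma adjusted p of at most 0.00269. The names miR-467d (-2.06 ± 0.34), miR-669o (-2.27 ± 0.08) and miR-297b (-3.55 ± 0.12) were called for 3p, with limma adjusted p of at most 0.00628. Shared rows make some of these ratios those of no single hairpin. Here miR-467a and miR-467d stand on opposite sides with the same 3p counts, and so differ by their 5p rows alone. The names miR-669a (-0.73 ± 0.13) and miR-466c (-0.74 ± 0.26) were not called.

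**Figure D3:**
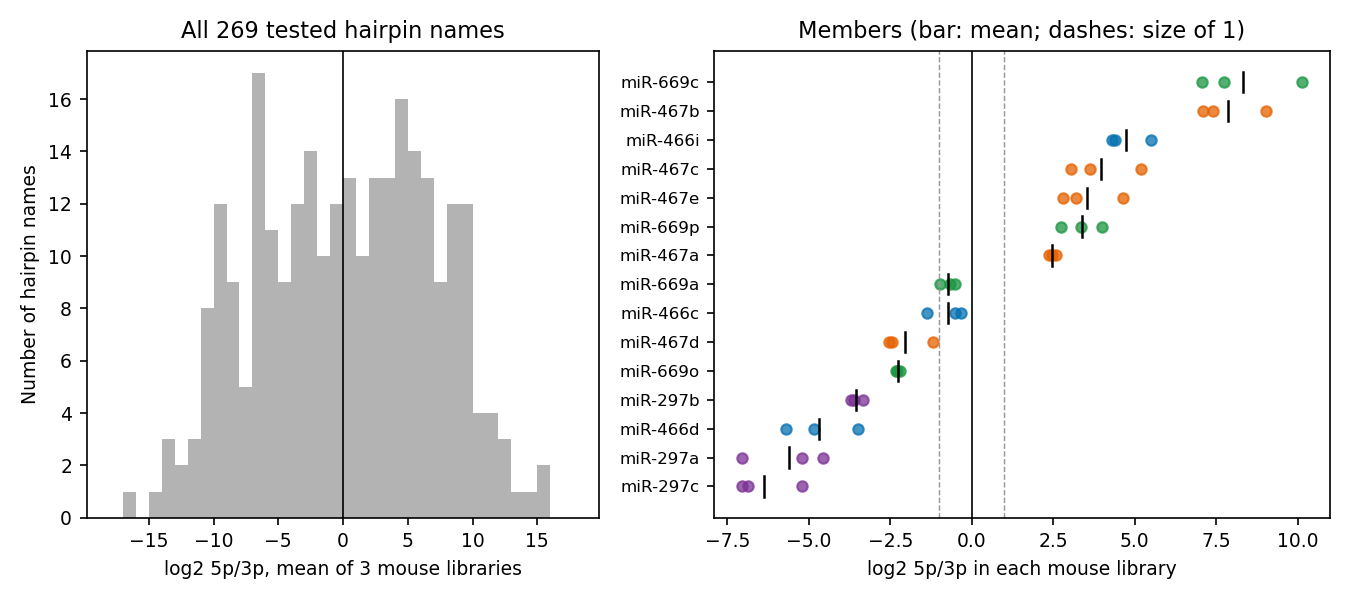
Left, number of mouse hairpin names at each log2 ratio of 5p over 3p counts (mean of 3 libraries, 269 names); right, the 15 member names with 1 point per library, a bar at the mean and dashed lines at a size of 1. The 7 names called for 5p and the 6 called for 3p lie outside the dashed lines, with miR-669a and miR-466c between.

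The rat table lists far fewer of these miRNAs: 7 names of miR-466, 1 of miR-297 and 0 of miR-467 and miR-669. With equal rows taken once, they summed to 177, 301 and 282 counts in r1, r2 and r4, or 9.74 CPM ± 2.30 (SD, n = 3), with r1 the lowest and a mean of 10.9 CPM without it. For miR-466 alone the sum was 14.2 CPM ± 0.666 over 31 mouse names (SD, n = 3), with no overlap between the species' libraries. Of that mouse sum, miR-466i-5p, which the rat list does not hold, gave 4.58 CPM. Without miR-466i, the mouse 5p and 3p names summed to 1.82 and 6.91 CPM, against 4.18 and 5.54 CPM in rat. By these means the 5p sum was higher in rat and the 3p sum higher in mouse. The mouse sums still hold names that the rat list lacks, such as miR-466a-3p at 1.69 CPM. They therefore do not compare the names that both lists hold, which are compared below. The lists differ in length and the annotation release of each is not given in the sources used here. The difference in sums between species was therefore not tested, and species, strain and annotation cannot be told apart.

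The most abundant rat member by mean was miR-466c-5p, with 46, 142 and 105 counts (3.75 CPM ± 1.86, SD, n = 3). Library r1 was the lowest, and the coefficient of variation, 49.5%, was well above the 10.1% that counting error gives. The names miR-466b-2-3p and miR-466b-4-3p shared 65, 70 and 75 counts (2.71 CPM ± 0.0555, SD, n = 3), with close agreement between libraries. In r1 their 65 counts exceeded the 46 of miR-466c-5p, so this order is not resolved. The name miR-466b-3p had 30, 45 and 41 counts, miR-466c-3p 27, 35 and 43, and miR-466b-5p 9, 8 and 17. Unlike in mouse, the rows of miR-466b-3p and miR-466c-3p were not equal in rat. The names miR-466d (0, 1 and 1) and miR-297 (0, 0 and 0) were at or near 0, and for miR-297 a count of 0 allows up to 0.106 to 0.124 CPM in a library.

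In total 4 member names were in both tables, miR-466b and miR-466c with both arms, and 3 passed the filter on low counts. They were tested with edgeR's quasi-likelihood test over all 398 shared names tested, where CPM is of the shared names after scaling. Shared names were matched by name and not by sequence. Whether an equal name stands for an equal sequence in both species was not checked. Of the 3, 1 was higher in rat (25.6% of all names tested were called higher), 0 were lower (24.4% of all tested) and 2 were not called. Scaled by library totals alone, 70.5% of all calls were higher in rat, against 51.3%, and the median log2 difference of all names was 0.33 in place of 0.08; the 3 members kept their direction and their calls.

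The name called was miR-466c-5p. It had 1.56, 1.29 and 1.78 scaled CPM in m1, m3 and m4 and 3.71, 6.27 and 4.17 in r1, r2 and r4. All rat libraries lay above all mouse libraries, as for 29.4% of all names tested. The log2 difference was 1.62 ± 0.29 (SE; edgeR adjusted p = 0.00152), and under the alternatives tried it lay between 1.37 and 1.89 and was called each time. Without r1 it was 1.74 (edgeR adjusted p = 0.000126). Markers of the pigment epithelium and other epithelia were also higher in rat and those of muscle lower, in the ranges given above, and their part in this difference was not tested.

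The 3p name of miR-466c was lower in rat, without being called. It is not known to come from the same hairpin as the 5p reads: miR-466c has 3 mouse hairpins, and its mouse 3p counts stand under 3 other names too. For miR-466c-3p the values were 2.26, 3.40 and 2.23 scaled CPM in mouse and 2.18, 1.54 and 1.71 in rat. The groups just fail to overlap, with rat lower, as for 30.4% of all names tested. In CPM of the table total they overlapped. The log2 difference was -0.56 ± 0.28 (SE; edgeR adjusted p = 0.125), and without r1 it was -0.69 and called (edgeR adjusted p = 0.02997). No other alternative called it. Scaled by library totals it was -0.35 (edgeR adjusted p = 0.384), and without m3 it was -0.33 (edgeR adjusted p = 0.398). The mouse row of miR-466b-3p is the same as that of miR-466c-3p, and its rat values of 2.42, 1.99 and 1.63 overlapped with mouse (log2 difference -0.41 ± 0.28, SE; edgeR adjusted p = 0.253). Because the mouse counts of both names are equal, these are not separate measurements of the mouse level.

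The fourth shared name, miR-466b-5p, did not pass the filter, with 4, 0 and 4 counts in mouse against 9, 8 and 17 in rat. With no filter its log2 difference was 1.94 (edgeR adjusted p = 0.0431). All rat libraries lay above all mouse libraries, at counts so low that the call depends on the library left out.

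The ratio of arms differed accordingly. For miR-466c, log2 of 5p over 3p was -0.52, -1.38 and -0.33 in m1, m3 and m4 and 0.76, 2.01 and 1.28 in r1, r2 and r4. The 3p arm led in every mouse library and the 5p arm in every rat library, with no overlap; 16.6% of the 169 shared hairpin names with at least 50 counts in each library had a higher ratio in rat without overlap. For miR-466b, under that minimum, the ratio was -3.13, -7.06 and -3.31 in mouse and -1.68, -2.42 and -1.25 in rat, also without overlap and with the 3p arm leading throughout. The difference was not tested, and the mouse 3p counts of both names are those shared with miR-466e and miR-466p. Here too the species were matched by name and not by sequence.

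**Figure D4:**
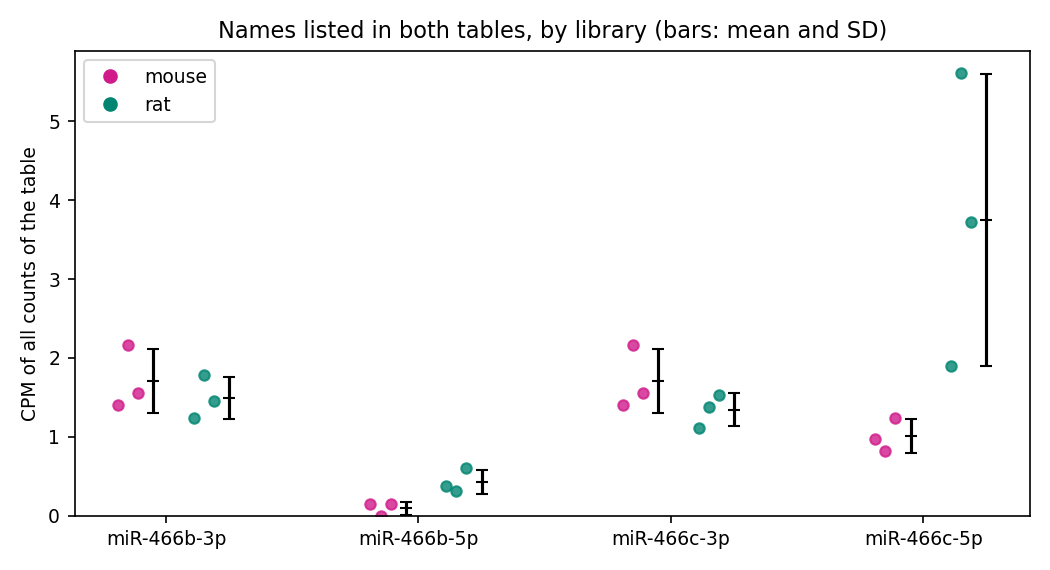
CPM of all counts of each table for the 4 names that both tables list, with 1 point per library (mouse m1, m3 and m4; rat r1, r2 and r4, from left to right) and bars for the mean and SD. The rat libraries of both 5p names lie above those of mouse, while the 3p names overlap.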

How the data were processed

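Small RNA from retina was read as 50-base single-end reads, per the labels' protocols. Each species has 1 table of unnormalized counts by miRNA name, as the authors deposited it. For the trimming, aligner and annotation release: not given in the sources used here. The labels' protocol names rat eyes for both species, and the columns (m1, m3, m4, r1, r2, r4) do not carry the labels' replicate numbers, so each was assigned to its species only.

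From these counts CPM of the table total, sums and arm ratios were computed. Species were compared with edgeR 4.0.16 (R 4.3.3) on the 542 exact shared names: filterByExpr, TMM, quasi-likelihood test with species as the only term, Benjamini-Hochberg adjustment over 398 names. Arms were tested with limma 3.58.1 on log2((5p + 0.5)/(3p + 0.5)). DESeq2 1.42.0 was an alternative. Both tests were tested on simulated data. Hairpins were matched to names by RefSeq symbol, a symbol without a letter standing for letter a; 8 of 80 names had a RefSeq mature sequence.

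The members and lists were chosen with earlier results of these data known. Named are the 20 most abundant sets of equal rows in mouse, the leading row of each number and arm, all rat members with a count, and members in a test; rows at 0, those just under 10 counts, miR-466b-5p and scattered hairpins were named after their values were seen.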

Additional observations from a re-analysis of the deposited data

How the results depend on the processing

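No paired analysis was possible because the columns do not carry the labels' replicate numbers. Grouping rows by identical mature sequence was not run, since sequences were matched for 8 of 80 names. The number of members called between species, 1 as reported, was 2 with no filter on low counts and 2 with DESeq2, miR-466b-5p being the one added (log2 difference 1.94 and 2.02). It was 3 with relaxed names, where miR-297a-3p and miR-466d-3p of mouse were joined to rat miR-297 and miR-466d, both near 0, by name and not by sequence. Leaving out 1 library gave 1 to 2: miR-466b-5p was added without m1 or r2, and miR-466c-3p without r1. The 27 mouse names detected became 50 with at least 1 count in each library and 6 with at least 100, and 27 to 29 when 1 library was left out. The mouse sum of 63.0 CPM became 90.5 CPM with every row summed, 61.5 CPM with rows within 10% of each other grouped, and 62.1 to 63.9 CPM without 1 library. The rat sum of 9.74 CPM became 12.4 CPM with every row summed, and 8.66 to 10.9 CPM without 1 library. Arm calls stayed at 13 of 15 with a pseudocount of 5 and without any 1 library, and were 19 of 23 with arms summing to at least 10 counts. No alternative reversed a direction. Depth limits the order of the fainter names: over the sets past 10 counts the median counting error was 13.5%.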
